A study of Mus musculus with 6 samples.

Results

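The Nodal branch of transforming growth factor signalling was compared between untreated mouse embryonic stem cells and cells given tamoxifen to delete Dicer. The set holds 9 genes, the inhibitors Lefty1 and Lefty2, the ligands Nodal and Gdf3, the co-receptor Tdgf1, the receptors Acvr1b, Acvr2a and Acvr2b, and the intracellular inhibitor Skil. They were taken by gene symbol, with every probe set that carried the symbol alone. All 9 were measured, each by 1 probe set, among 19938 genes represented by 21789 such probe sets. Both groups were embryonic stem cells of the genotype Dicer Fx/Fx, in which the Dicer alleles can be deleted by recombination. Of the 6 arrays, 3 came from cells without deletion (untreated) and 3 from cells in which tamoxifen had been used to delete Dicer. Tamoxifen was given for 3 days and cells were collected 2 days later, on day 5; no collection day is given for the untreated cells, and no recombinase is named in the labels. No wild-type cells with tamoxifen were analysed here, so effects of the drug, of time in culture and of Dicer deletion cannot be told apart. Whether the replicates were separate cultures is not stated, and p-values may therefore reflect technical spread alone.

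Nodal is a secreted ligand that binds type II activin receptors (Acvr2a, Acvr2b) and the type I receptor Acvr1b together with the membrane-anchored co-receptor Cripto, encoded by Tdgf1. The receptor phosphorylates SMAD2 and SMAD3, which enter the nucleus with SMAD4 and act with partners such as FOXH1. Among the genes they switch on are Nodal itself and the Lefty genes, whose products block Nodal and Cripto, so that the pathway carries both a positive and a negative feedback loop. Dicer makes the mature microRNAs. The main Dicer products of mouse embryonic stem cells include the miR-290 family, which shares its seed, the bases that pair with target transcripts, with the miR-302 family. In human embryonic stem cells the LEFTY transcripts have been described as targets of miR-302. Members of both families are shown for their common seed, in capitals (bases 2 to 8), with sequences from RefSeq (GRCm38.p6). The microRNAs were not measured here, and target sites were not tested.
mmu-miR-291a-3p: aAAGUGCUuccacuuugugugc
mmu-miR-294-3p: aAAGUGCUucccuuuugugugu
mmu-miR-295-3p: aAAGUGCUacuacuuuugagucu
mmu-miR-302b-3p: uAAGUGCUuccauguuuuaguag
mmu-miR-302d-3p: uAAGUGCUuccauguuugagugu
All 5 carry the seed AAGUGCU and differ in the bases after it.

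After tamoxifen Lefty1, Nodal and Gdf3 rose, and the other 6 members did not pass the test in the main fit, which left out the replicate number. The 3 rises make up 33.3% of the members, against 3.79% of all 19938 genes called higher, 3.99% called lower and 7.78% called in either direction (limma, Benjamini-Hochberg adjusted p under 0.05). Members and the gene lists below were chosen with earlier results of these data known. Such shares are therefore descriptions, and enrichment was not tested. With the replicate number as a block, 5 members were called, Lefty2 and Tdgf1 in addition, beside 17.4% of all genes. The median change of the members was 0.16 on the log2 scale, beside 0.01 over all genes. In 6 of the 9 members (5 higher, 1 lower) the tamoxifen arrays did not overlap the untreated arrays, which held for 29.3% of all genes. An exact permutation test of 3 against 3 arrays cannot give a two-sided p below 0.1, and these 6 members reached that value. Dicer1 itself fell by 1.85 ± 0.07 (SE) on the log2 scale, with untreated arrays at 11.36 to 11.48 and tamoxifen arrays at 9.48 to 9.69. All values below are log2 intensities, and a difference of 1 is a doubling of the signal; levels of different genes are not compared, because probe sets differ in brightness.

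**Figure D1:**
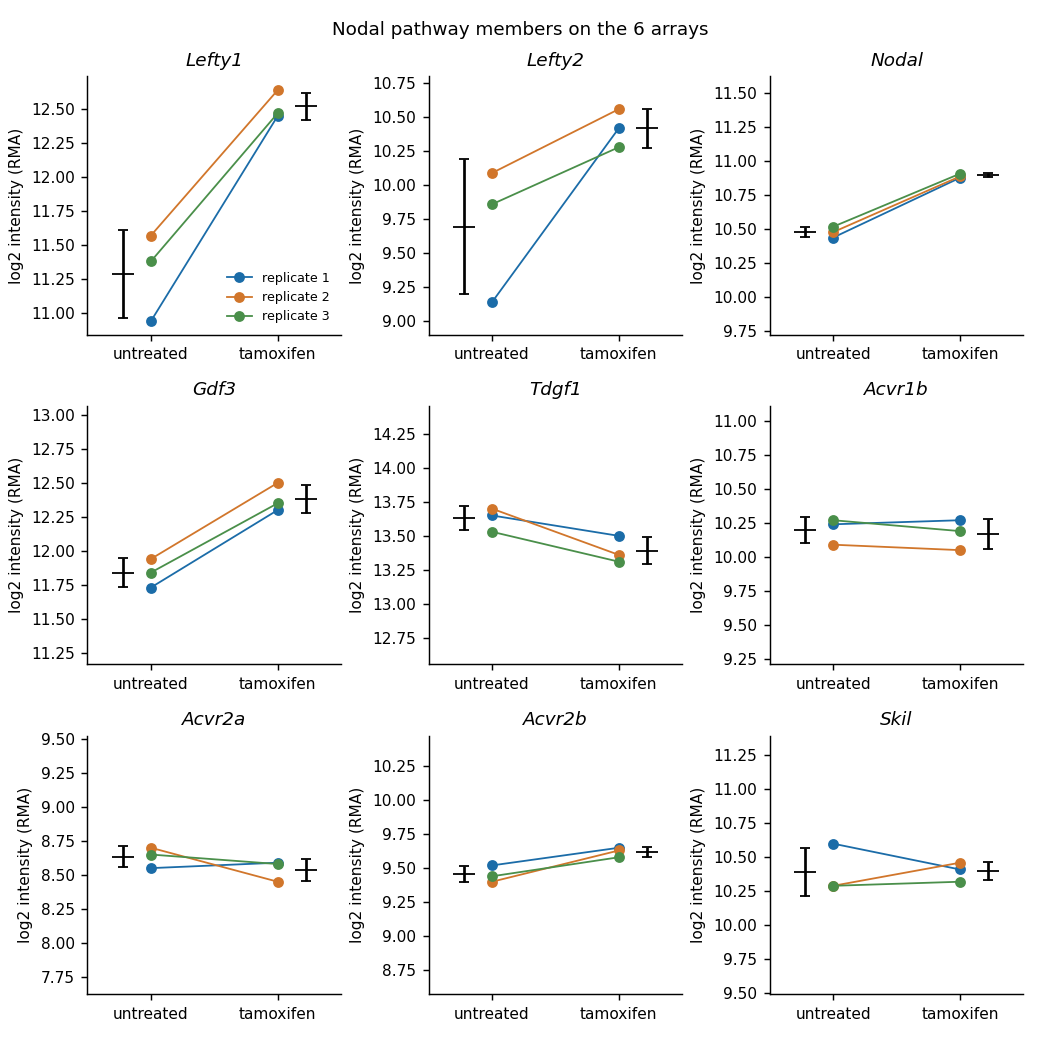
Log2 intensity (RMA, vertical axis, each panel spanning the same range) of the 9 members on the 3 untreated and 3 tamoxifen arrays. Coloured points are arrays, lines join arrays with the same replicate number, and black bars give the group mean ± SD (n = 3). Lefty1 lies at 10.94 to 11.57 in untreated cells and at 12.45 to 12.64 after tamoxifen, while the 3 Nodal lines nearly coincide.

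Lefty1, a secreted antagonist that binds Nodal and Cripto, had the largest change among the members. Its untreated arrays read 10.94, 11.57 and 11.38 for replicates 1 to 3, and its tamoxifen arrays 12.45, 12.64 and 12.47. Every tamoxifen array was above every untreated array, and untreated replicate 1 was the lowest of the 6. The mean went from 11.29 ± 0.32 to 12.52 ± 0.10 (SD, n = 3), a 2.34-fold rise with a 95% interval of 1.87 to 2.93 (log2 1.23 ± 0.14 SE, limma adjusted p = 0.0039). Within same-numbered pairs the rise was 1.52, 1.07 and 1.09. It ranked 78 of all genes by p. Without untreated replicate 1 the rise was 1.05, and it was called whichever array was left out.

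Lefty2, the paralog of Lefty1 with the same inhibitory function, had higher values after tamoxifen but did not pass the test. The untreated arrays read 9.14, 10.09 and 9.86 and the tamoxifen arrays 10.42, 10.56 and 10.28. The groups did not overlap, yet untreated replicate 1 lay far below the other untreated arrays, as it did for Lefty1, and widened the untreated SD to 0.50 against 0.14 after tamoxifen. The difference was 0.72 ± 0.21 (SE, limma adjusted p = 0.0711), with a 95% interval of 0.25 to 1.2. The same-numbered pairs differed by 1.28, 0.48 and 0.41. With the replicate number as a block, Lefty2 passed (limma adjusted p = 0.0141, the same difference with an SE of 0.15). Without untreated replicate 1 the difference was 0.44 and its adjusted p was 0.0482 (limma), while without untreated replicate 2 the difference was 0.92.

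In the RefSeq gene table of GRCm38.p6 the long non-coding gene Gm39715 overlaps Lefty1. Probe sequences were not used here, so signal shared between the paralogs, or between Lefty1 and Gm39715, was not tested. The within-array gap between Lefty1 and Lefty2 was wider on every tamoxifen array than on any untreated array. Relative to its untreated mean, the Lefty1 minus Lefty2 difference was 0.20, -0.12 and -0.08 in untreated replicates 1 to 3 and 0.44, 0.47 and 0.60 in tamoxifen replicates 1 to 3. The groups did not overlap and the shift was 0.50 (exact two-sided permutation p = 0.1, the smallest possible, and 0.1 adjusted over the 3 such differences computed). These 3 pairs of genes were chosen after their values were seen.

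Nodal rose by a smaller amount and with the least spread of the 3 called members. The untreated arrays read 10.44, 10.48 and 10.52 and the tamoxifen arrays 10.88, 10.89 and 10.91. Both groups were tight, with SDs of 0.04 and 0.02 (n = 3), and lay clearly apart. The rise was 1.34-fold, with a 95% interval of 1.22 to 1.46 (log2 0.42 ± 0.06 SE, limma adjusted p = 0.00664). The pairs gave 0.44, 0.42 and 0.39, and leaving out any array left the rise between 0.40 and 0.44. Untreated replicate 1, the lowest array for both Lefty genes, was here close to the other untreated arrays. The gap between Lefty1 and Nodal also widened on every tamoxifen array. The Lefty1 minus Nodal difference, relative to its untreated mean, was -0.32, 0.27 and 0.05 in untreated cells and 0.76, 0.93 and 0.75 after tamoxifen. The shift of 0.81 had an exact two-sided permutation p of 0.1, the smallest possible.

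Gdf3, a ligand of the same family that signals with Cripto and is abundant in pluripotent cells, rose as well. Its untreated arrays read 11.73, 11.94 and 11.84, and its tamoxifen arrays 12.30, 12.50 and 12.35. The groups did not overlap, and replicate 2 was the highest array in both. The rise was 1.46-fold, with a 95% interval of 1.29 to 1.66 (log2 0.55 ± 0.08 SE, limma adjusted p = 0.00824). The pairs gave 0.57, 0.56 and 0.52, which is a narrower spread than that of Lefty1. Gdf3 was called in 6 of 6 fits that left out an array, with limma adjusted p-values from 0.0107 to 0.0386.

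Tdgf1, the Nodal co-receptor, was the only member with lower values on all tamoxifen arrays. Untreated arrays read 13.65, 13.70 and 13.53, and tamoxifen arrays 13.50, 13.36 and 13.31. The groups were only narrowly separated. The difference of -0.24 ± 0.08 (SE), with a 95% interval of -0.41 to -0.07, did not pass the test (limma adjusted p = 0.0912). The pairs gave -0.15, -0.35 and -0.22. It passed with the replicate block (limma adjusted p = 0.0326) and with a variance prior fitted with an intensity trend and robust estimation (0.0372). The Nodal minus Tdgf1 difference, relative to its untreated mean, was -0.06, -0.08 and 0.14 in untreated cells and 0.53, 0.69 and 0.76 after tamoxifen, a shift of 0.66 (exact two-sided permutation p = 0.1, the smallest possible). Nodal was higher and Tdgf1 lower on every tamoxifen array, so this separation was fixed in advance. The p-value adds nothing to the results of the 2 genes.

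**Figure D2:**
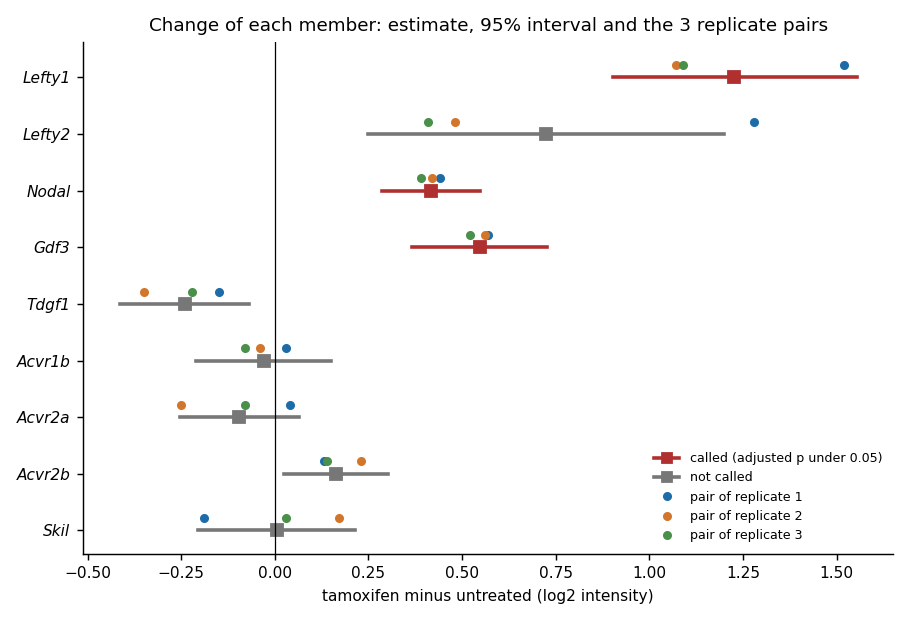
Tamoxifen minus untreated difference of each member in log2 intensity. Squares with bars are limma estimates with 95% intervals, red where the adjusted p was under 0.05 and grey otherwise; small coloured points are the differences of the 3 same-numbered pairs. Lefty1, Nodal and Gdf3 are red, and the pair of replicate 1 stands to the right for both Lefty genes.

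None of the 3 receptor genes was called by limma, and 1 of them, Acvr2b, had an unadjusted p under 0.05. Acvr2b, a type II receptor, read 9.52, 9.40 and 9.44 in untreated cells and 9.65, 9.63 and 9.58 after tamoxifen. The groups did not overlap, and the difference was 0.16 ± 0.06 (SE), with a 95% interval of 0.02 to 0.30 (limma adjusted p = 0.142). For Acvr2a, the other type II receptor, the untreated arrays at 8.55, 8.70 and 8.65 overlapped the tamoxifen arrays at 8.59, 8.45 and 8.58. Its difference was -0.09 with an interval of -0.25 to 0.06 (limma adjusted p = 0.45). The type I receptor Acvr1b read 10.24, 10.09 and 10.27 in untreated cells and 10.27, 10.05 and 10.19 after tamoxifen. Replicate 2 was its lowest array in both groups, and the difference of -0.03 had an interval of -0.21 to 0.15 (limma adjusted p = 0.86). After cyclic loess the Acvr1b difference was 0.02 and after renewed quantile normalisation 0.0046, so its sign is not settled. Overlapping genes in the RefSeq table are Orc4 for Acvr2a and Mir6962 for Acvr1b.

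Skil encodes SnoN, which binds SMAD proteins and represses their targets, and is itself induced by the pathway. Untreated arrays read 10.60, 10.29 and 10.29, and tamoxifen arrays 10.41, 10.46 and 10.32. The groups overlapped, and untreated replicate 1 was the highest array. The difference was 0.00 ± 0.09 (SE), with a 95% interval of -0.21 to 0.21 (limma adjusted p = 0.984). Leaving out untreated replicate 1 gave 0.11, and leaving out untreated replicate 3 gave -0.05, so Skil had no settled direction. A rise as large as that of Nodal lay outside the 95% intervals of Acvr1b, Acvr2a, Acvr2b and Skil.

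Of 45 other genes of the pathway 42 were measured; 6 rose, 1 fell and 35 were not called by limma. The 7 called genes are 16.7% of the 42, beside 7.78% of all genes, and the median change was 0.06. The groups did not overlap in 12 of the 42 genes, beside 29.3% of all genes. The count depended on the arrays used. It was 3 and 2 when untreated replicates 2 and 3 were left out, and 1 and 2 when tamoxifen replicates 2 and 3 were. The count over all genes fell in the same fits, from 1552 to 516, 908, 355 and 539 in that order. The drop was therefore not confined to the pathway genes. With the replicate block 8 of the 42 pathway genes rose and 3 fell, beside 17.4% of all genes called in that fit. The clearest change was in the receptor list, where Tgfbr1, a type I receptor for TGF-beta that also signals through SMAD2 and SMAD3, rose. Its untreated arrays read 9.48, 9.51 and 9.46 and its tamoxifen arrays 10.01, 9.99 and 10.05. The groups were far apart relative to their spread, and the rise of 0.53 ± 0.06 (SE, limma adjusted p = 0.00308) was called in 6 of 6 fits without an array. The other 5 receptors and co-receptors (Acvr1, Acvr1c, Tgfbr2, Tgfbr3 and Cfc1) had positive differences of 0.04 to 0.18, none of them called.

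Outside the cell, Fst, which encodes the activin-binding protein follistatin, rose by 0.51 ± 0.10 (SE, limma adjusted p = 0.0221). Its untreated arrays ran from 7.22 to 7.51 and its tamoxifen arrays from 7.67 to 7.97, with no overlap. Pcsk6, a convertase that cleaves the Nodal precursor, fell by 0.34 ± 0.07 on the log2 scale (limma adjusted p = 0.0266). Its untreated arrays ran from 10.05 to 10.22 and its tamoxifen arrays from 9.74 to 9.88. Each of these genes was called in 2 of the 6 fits without an array. The other 5 of that list, among them the Nodal antagonist Cer1 and the convertase Furin, were not called. None of the 5 measured other ligands was called by limma, with 1 higher at an unadjusted p under 0.05. Gdf11, a ligand of the activin receptors, had the smallest p at 0.30 ± 0.12 (SE, limma adjusted p = 0.15, or 0.0324 with the replicate block), and Inhba, an activin subunit, followed at 0.18 ± 0.09 (0.248).

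Among 6 transducers, Smad3 and Smad2, the SMAD proteins that Nodal receptors phosphorylate, rose by 0.42 ± 0.10 and 0.25 ± 0.06 (SE, limma adjusted p = 0.0437 and 0.0396). Smad3 read 9.65, 9.38 and 9.22 in untreated cells and 9.84, 9.82 and 9.84 after tamoxifen. Its untreated arrays scattered widely and its tamoxifen arrays hardly at all, and without an array the Smad3 difference ran from 0.32 to 0.54, called in 1 of 6 fits. Smad2 ran from 10.23 to 10.32 untreated and from 10.50 to 10.55 after tamoxifen, and was called in 0 of 6 fits without an array (limma adjusted p-values from 0.055 to 0.133). The SMAD partner Foxh1, outside the naming rule and picked after its value was seen, had a difference of -0.30 ± 0.12 (SE, limma adjusted p = 0.171). It passed with the replicate block (limma adjusted p = 0.01), the pairs giving -0.28, -0.35 and -0.28.

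Of 10 intracellular inhibitors 1 was called (10.0%, beside 7.78% of all genes). Ldlrad4, which limits the access of SMAD2 and SMAD3 to their receptors, rose by 0.64 ± 0.11 (SE, limma adjusted p = 0.0133), from 8.73 to 9.0 in untreated cells to 9.36 to 9.73 after tamoxifen. It was called in 5 of 6 fits without an array; without tamoxifen replicate 2 its adjusted p was 0.0537 (limma). Ski, outside the naming rule, had a difference of 0.19 without overlap of the groups (limma adjusted p = 0.0802, or 0.0548 with the replicate block). Pmepa1, another inhibitor of the receptor-activated SMADs, also outside the naming rule, had a difference of 0.23 (limma adjusted p = 0.183). It passed with the replicate block (limma adjusted p = 0.0348). Smad7, an inhibitory SMAD induced by the pathway and picked after its value was seen, had a difference of -0.35 ± 0.12 (SE, limma adjusted p = 0.127). Of 8 measured described targets of the pathway, 1 was called (12.5%, beside the same 7.78%). Gsc, a homeobox gene of the primitive streak, rose by 0.32 ± 0.08 (SE, limma adjusted p = 0.042), called in 2 of 6 fits without an array and not with the trended robust variance prior (0.0513). Eomes, a T-box gene also picked after its value was seen, had a difference of the opposite sign, -0.57 ± 0.23 (SE, limma adjusted p = 0.174), and its groups overlapped. It passed with the replicate block (limma adjusted p = 0.00745), with pairs of -0.26, -0.62 and -0.84.

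**Figure D3:**
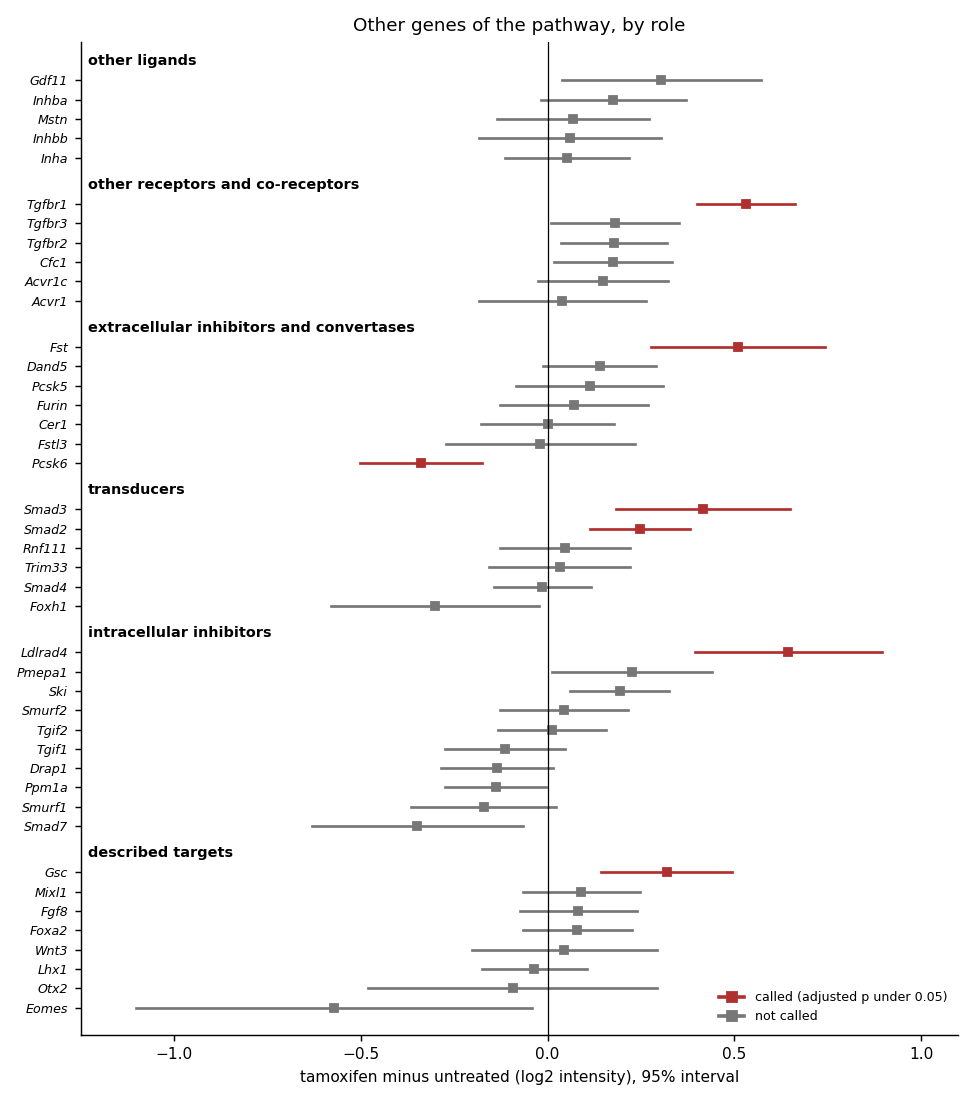
Tamoxifen minus untreated difference in log2 intensity of the 42 measured other genes of the pathway, grouped by role and sorted within each group. Squares with bars are limma estimates with 95% intervals, red where the adjusted p was under 0.05. Tgfbr1, Fst, Smad3, Smad2, Ldlrad4 and Gsc are red to the right of 0 and Pcsk6 to the left.

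The label of the cells was checked against markers. None of 7 embryonic stem cell markers was called by limma (2 lower and 0 higher at an unadjusted p under 0.05). Main-fit calls in this and the following lists stand beside 7.78% of all genes. The share of all genes at that unadjusted level is not given here. Unadjusted counts, here and above, therefore cannot be weighed against it and do not show a change in any list. Pou5f1, Sox2 and Nanog, the core pluripotency factors, differed by -0.11, 0.06 and 0.07 (limma adjusted p = 0.396, 0.597 and 0.52), and their arrays read between 12.79 and 13.43. In 4 of the 7 markers the groups did not overlap, beside 29.3% of all genes. Utf1, Zfp42 and Dppa5a were lower and Nanog was higher on every tamoxifen array. Utf1 and Zfp42, outside the naming rule and picked after their values were seen, had differences of -0.26 and -0.19 (limma adjusted p = 0.0574 and 0.0876). Utf1 passed with the replicate block (limma adjusted p = 0.0193). The differences of Dppa5a and Esrrb were -0.09 and 0.05 (limma adjusted p = 0.442 and 0.699). Among markers of other cells, 0 of 6 for extraembryonic endoderm, 0 of 5 for trophoblast and 0 of 5 for fibroblast feeders were called by limma; at an unadjusted p under 0.05 these lists had 1, 2 and 0 higher and 1, 1 and 1 lower. For the primitive streak 1 of 3 was called (Gsc, higher), while Eomes had a difference of -0.57 and Mixl1 of 0.09, neither called. The mean over the list was 7.78 to 8.01 in untreated and 7.71 to 7.96 in tamoxifen arrays. For neural cells 1 of 4 was called: Neurod1, a neurogenic transcription factor, rose by 0.91 ± 0.18 (SE, limma adjusted p = 0.0194). Sox1, Pax6 and Nes had differences of 0.29, 0.08 and -0.01, none of them called, and the groups overlapped for Pax6 and Nes. The list mean, in which Neurod1 had the largest difference, was 8.13 to 8.41 in untreated and 8.42 to 8.74 in tamoxifen arrays. The part of such cells in the changes of the Nodal genes was not tested, and in bulk RNA fewer cells of a type and less RNA per cell cannot be told apart. With the replicate block 2 neural markers were called higher (Neurod1 and Sox1) and 1 feeder marker lower (Thy1). There was 1 higher and 1 lower each for extraembryonic endoderm (Pdgfra and Sox7), trophoblast (Tfap2c and Eomes) and primitive streak (Gsc and Eomes). In that fit 17.4% of all genes were called. RMA values have no 0 and no detection call, so markers that were absent cannot be named.

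The genes whose values followed Lefty1 most closely were sought among 2939 genes whose highest and lowest arrays differed by at least 0.5. Placeholder symbols and microRNA genes were then passed over. Over the 6 arrays Pearson's r with Lefty1 was 0.997 for Sox21, a SOX transcription factor, 0.995 for Nr1d2, a nuclear receptor of the circadian clock, and 0.995 for Ppt1, a lysosomal thioesterase. It was 0.994 for Msc, a basic helix-loop-helix repressor, and 0.994 for Frmd4a, a scaffold protein. The arrays fall into 2 treatment groups, which these values share, so r is given as a description. All 5 rose, by 0.46 to 1.11, with limma adjusted p-values from 0.00225 to 0.00924. Genes chosen for their likeness to Lefty1 on these arrays rise with it by that choice, so these p-values are no separate test. The other Lefty gene was not among these 5.

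Promoter windows of 300 bases (RefSeq, GRCm38.p6) were at hand for 5 of the 9 members, running from 250 before to 50 after the gene start except for Acvr2b, whose window lies inside the annotated gene; Lefty1, Lefty2, Gdf3 and Skil had no entry. Those of Nodal and its co-receptor Tdgf1, whose differences had opposite signs, are shown 5′ to 3′, with matches to CAGAC, the SMAD box, in capitals. Both strands were searched, also for AATNCACA, a FOXH1 motif; the motifs do not overlap in these windows. The Nodal window is chr10:61417722-61418021 on the + strand and the Tdgf1 window chr9:110946109-110946408 on the - strand.
Nodal: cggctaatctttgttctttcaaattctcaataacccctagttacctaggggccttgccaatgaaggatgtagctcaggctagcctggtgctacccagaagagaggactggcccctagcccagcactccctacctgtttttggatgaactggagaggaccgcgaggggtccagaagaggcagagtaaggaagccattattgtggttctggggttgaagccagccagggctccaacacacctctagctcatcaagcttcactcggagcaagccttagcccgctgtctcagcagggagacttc
Tdgf1: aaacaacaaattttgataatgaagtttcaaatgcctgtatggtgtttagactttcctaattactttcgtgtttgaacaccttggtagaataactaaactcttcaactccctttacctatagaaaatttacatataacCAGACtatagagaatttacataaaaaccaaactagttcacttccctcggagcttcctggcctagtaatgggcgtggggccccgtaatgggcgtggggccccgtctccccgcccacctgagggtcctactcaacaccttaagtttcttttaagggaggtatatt
The Nodal window held 0 matches to CAGAC and the Tdgf1 window 1, while 49.6% of 32851 promoter windows held at least 1. Of the 5 members with a window 3 held a match (Tdgf1, Acvr2a and Acvr2b). AATNCACA was in 0 of the 5 member windows and in 3.6% of all windows. A match or its lack describes these letters only.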

How the data were processed

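Total RNA of 6 embryonic stem cell samples was measured on Affymetrix arrays. Per the submitters' processing notes, the authors ran RMA (background correction, quantile normalisation, summary per probe set) in Affymetrix Expression Console 1.2, and the deposited values are log2 intensities. That scale follows from their range of 3.18 to 14.6. Quantile normalisation hides changes shared by most transcripts, and RMA shrinks the changes of dim probe sets. A genome build is not given in the sources used here.

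Among 35556 probe sets 21789 carried a lone gene symbol; 21698 of their Entrez IDs were found in a RefSeq gene table (GRCm38.p6), which changed 0 symbols. The brightest probe set per gene was kept. The test was limma 3.58.1 (R 4.3.3; lmFit, eBayes, two-sided), adjusting over all 19938 genes; calls are at an adjusted p under 0.05. Exact permutation tests used scipy 1.17.1. The code was tested on simulated data. Named genes are the 9 members, Dicer1, each pathway list's called genes (or the 2 with the smallest p), the 5 most like Lefty1 without placeholder symbols and microRNA genes, and Pou5f1, Sox2 and Nanog. Members and lists were chosen with earlier results of these data known. Alternatives were the replicate block, probe set means, a filter on dim genes, 2 renormalisations, another variance prior, all probe sets, a stricter threshold for 2 counts and leaving out each array.

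Deviations from the group means correlated at 0.356, 0.345 and 0.389 between arrays numbered 1, 2 and 3, and at -0.25 to -0.11 between arrays of different number. Deviations cancel within each group, so the negative values follow from the positive ones and add no evidence. On the same-number values alone, the replicate numbers may pair the samples. The main fit had no replicate term, and the pairing enters only in the replicate block. Across genes, r was 0.996 to 0.998 within groups and 0.993 to 0.996 between them. Precision is limited by having 3 arrays per group.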

Additional observations from a re-analysis of the deposited data

How the results depend on the processing

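Lefty1, Nodal and Gdf3 were called in all 13 alternative fits each. These fits are not all separate checks. With 1 probe set per member, probe set means, the filter on dim genes and the fit over all probe sets left the members' values unchanged. Those fits altered only the variance prior and the adjustment. With the replicate block as pairing, 5 members were called, Lefty2 (0.72) and Tdgf1 (-0.24) joining, and 11 other pathway genes and 3472 genes in all; it changed no other member's call. Lefty2 also passed without untreated replicate 1, its difference running from 0.44 to 0.92 when an array was left out, and Tdgf1 (-0.24) with the trended robust variance prior. The Acvr1b difference turned positive after renewed quantile normalisation (0.0046) and cyclic loess (0.0164) and ran from -0.0848 to 0.0298 when an array was left out, and that of Skil from -0.0475 to 0.107; neither was called in any fit. Over all 35556 probe sets 336 were called, and 1 other pathway gene, Tgfbr1. Leaving out an array gave 355 to 1580 genes, 3 to 4 members and 1 to 7 other pathway genes. At an adjusted p under 0.01, 276 genes were called. Where fewer arrays were tested, power also fell; other causes were not tested. Other probe sets of the members could not be compared because each has 1. Signal over background is unknown for RMA values.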
